A study of Mus musculus with 18 samples.

Results

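The mitochondrial ribosomal protein genes were followed in L929 cells, an established line of mouse fibroblasts, under an inhibitor of aminotransferases, cytosolic DNA and added aspartate. A gene was taken as a member when its name in the deposited table began with Mrpl or Mrps and a number, was not marked as a pseudogene by a -ps suffix, and had at least 10 counts in at least 3 of the 18 libraries. Of the 57180 genes in the table, 78 were members, 29 with an Mrps name and 49 with an Mrpl name. The names stand for the small and the large subunit, but Mrps18a and Mrps30 belong to the large subunit and Mrps36 to neither. All 78 were among the 14263 genes with enough counts to be tested, so no member was lost to a filter. The 6 names with a -ps suffix were left out, and Mrpl23-ps1 (324 to 595 counts a library) and Mrpl48-ps (118 to 187 counts) were the only ones above 1 count in any library.

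Total RNA of 6 groups of wild-type L929 cells was sequenced, with 3 libraries a group, given as biological replicates. Mock cells carried the treatment label DMSO. Aminooxyacetic acid (AOA), which blocks the pyridoxal phosphate-dependent aminotransferases that make aspartate and other amino acids, was given at 0.5 mM from 1 h before stimulation. HT-DNA, herring testis DNA that is sensed by cGAS once it is in the cytosol, was transfected at 0.5 µg/ml with Lipofectamine 2000 for 6 h, and aspartate (Asp) was supplied at 20 mM. The groups were Mock, AOA, AOA+Asp, HT-DNA, HT-DNA+AOA and HT-DNA+AOA+Asp, and no group received aspartate without AOA. The labels do not say whether cells without HT-DNA received the transfection reagent, and a single cell line was used.

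Library totals ran from 17901605 to 24057343 counts, with a median of 20385838. Of 10 fibroblast markers 8 had at least 10 counts in every library, while Thy1 (0 to 4 counts) and Lum (0 to 1 count) were nearly absent. Of 8 markers of other cell types only Cd68 passed the same mark (109 to 142 CPM, counts scaled to a common library size), and Ptprc, Adgre1 and Cd3e were at 0 in every library. The HT-DNA+AOA libraries stood apart from one another. The members' coefficient of variation over the 3 replicates had a median of 16.6% in that group, against 2.84% to 6.78% in the other 5. Replicate 1 was the lowest of the 3 for 71 of the 78 members and replicate 3 the highest for 69. Both held at once for 68 members in that group, 35 in Mock and 37 in AOA. In AOA+Asp, HT-DNA and HT-DNA+AOA+Asp they did so for 5, 3 and 17. In bulk RNA, fewer cells of a type and less RNA per cell cannot be told apart, and every level is relative to the rest of the library.

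The mitochondrial ribosome translates the few mRNAs that the mitochondrial genome encodes, all of them for membrane subunits of the respiratory chain and the ATP synthase. Its rRNAs come from mitochondrial DNA, while every one of its proteins is encoded in the nucleus, made in the cytosol and imported. Some of these proteins descend from the bacterial ancestor, and others are particular to mitochondria and sit at the surface, around the exit of the peptide tunnel and in the central protuberance. Promoters of nuclear genes for mitochondrial proteins are known for sites of the nuclear respiratory factor NRF1, of ETS family factors such as GABPA (NRF2), and of YY1.

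Start-site windows of the members, from 250 bases before to 50 after the start and 300 bases long, were read from RefSeq (build GRCm38.p6), where 69 of the 78 members matched. Letters were searched on both strands and no searched motif contains another. The ETS letters CCGGAAG stood in the windows of 26 members (37.7%), against 9.93% of all 27025 genes with a window. NRF1 letters, GCGCA and GCGC with any 1 base between them, were found for 13 members (18.8%, against 5.19% of all genes) and YY1 letters, AANATGGCG, for 11 (15.9%, against 2.76%). The E-box CACGTG, the site of MYC family factors among others, was found for 5 members (7.25%), against 8.09% of all genes. At least 1 of the 4 motifs was present for 44 members and none for 25. Median GC content was 58.7% in the members' windows and 52.7% in all windows. A match is only a description of letters, and its absence from a window says nothing about a factor.
Windows are shown for 4 members on which the results below turn, each 5′ to 3′ on the gene's strand with motif letters in capitals. They are Mrpl57 (chr14:57825989-57826288, plus strand, with NRF1 and ETS letters), Mrpl12 (chr11:120484387-120484686, plus strand, with NRF1 letters), Mrpl18 (chr17:12916042-12916341, minus strand, with ETS letters) and Mrps10 (chr17:47368947-47369246, plus strand, with none of the 4).
Mrpl57: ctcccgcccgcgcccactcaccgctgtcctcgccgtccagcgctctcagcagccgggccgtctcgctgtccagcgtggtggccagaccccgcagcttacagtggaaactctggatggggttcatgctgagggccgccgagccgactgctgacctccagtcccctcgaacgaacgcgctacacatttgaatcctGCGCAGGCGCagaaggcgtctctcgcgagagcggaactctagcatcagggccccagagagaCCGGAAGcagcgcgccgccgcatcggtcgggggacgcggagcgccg
Mrpl12: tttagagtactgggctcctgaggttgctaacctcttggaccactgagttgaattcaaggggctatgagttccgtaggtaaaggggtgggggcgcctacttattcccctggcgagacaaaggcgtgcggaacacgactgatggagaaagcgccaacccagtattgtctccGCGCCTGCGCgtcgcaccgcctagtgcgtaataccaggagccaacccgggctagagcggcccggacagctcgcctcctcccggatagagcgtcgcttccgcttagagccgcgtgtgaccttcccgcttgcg
Mrpl18: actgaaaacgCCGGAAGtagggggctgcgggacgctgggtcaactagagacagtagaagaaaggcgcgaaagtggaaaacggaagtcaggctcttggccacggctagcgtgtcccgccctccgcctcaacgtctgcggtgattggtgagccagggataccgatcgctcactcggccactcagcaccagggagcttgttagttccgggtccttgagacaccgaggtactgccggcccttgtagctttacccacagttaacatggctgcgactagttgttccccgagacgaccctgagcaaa
Mrps10: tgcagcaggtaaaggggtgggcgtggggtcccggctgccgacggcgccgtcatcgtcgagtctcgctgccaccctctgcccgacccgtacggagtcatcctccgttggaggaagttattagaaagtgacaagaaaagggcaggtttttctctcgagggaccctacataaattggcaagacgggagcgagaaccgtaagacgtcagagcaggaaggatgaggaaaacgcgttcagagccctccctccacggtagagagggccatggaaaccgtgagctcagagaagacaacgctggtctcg

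In Mock cells the members were all detected but at levels that ranged widely once divided by transcript length. Per kilobase of the longest annotated transcript, the highest was Mrps21, a small subunit protein with a bacterial counterpart, at 197 ± 10.1 CPM per kb (SD, n = 3). It was followed by Mrpl33 at 184 ± 18.4 and Mrpl42 at 141 ± 5.82 CPM per kb, and Mrps21 and Mrpl33 did not differ beyond their spread. Mrpl12, the stalk protein that contacts translation factors, stood at 109 ± 1.96 and Mrpl20 at 102 ± 7.13 CPM per kb, which also did not differ beyond their spread. The lowest were Mrpl23 at 5.44 ± 0.395, Mrpl57 at 5.28 ± 0.545 and Mrpl35 at 4.81 ± 0.291 CPM per kb, and the median member stood at 31.8. Transcript models that the cells do not use would lower such values, and 67.6% of the 31-base words of Mrpl23 occur in another gene, so its level is uncertain.

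Summed over the 78 members, Mock libraries held 3785, 3885 and 4033 CPM and AOA libraries 4448, 4717 and 4844 CPM, without overlap. AOA+Asp libraries were back in the range around Mock, at 3891, 4089 and 3780 CPM. HT-DNA libraries held the most among groups with a narrow spread, 5489, 4954 and 5293 CPM. HT-DNA+AOA libraries ran from 4266 through 5038 to 5794 CPM and thus spanned the AOA and HT-DNA groups, whereas HT-DNA+AOA+Asp libraries lay within 4206 to 4224 CPM. Cytosolic ribosomal protein genes (84 members by an analogous rule) summed to between 58812 and 90849 CPM over the same HT-DNA+AOA libraries, lowest in replicate 1 and highest in replicate 3 as well.

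**Figure D1:**
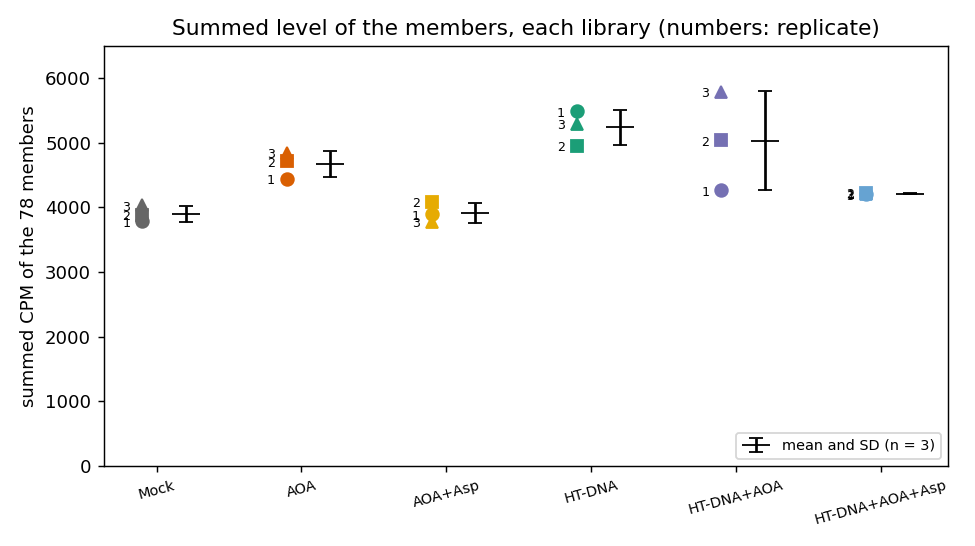
Summed level of the 78 members in CPM (vertical axis, from 0) in each of the 18 libraries by group, with replicate numbers beside the points and the mean and SD of 3 libraries in black. Mock and AOA do not overlap, AOA+Asp lies near Mock, and the HT-DNA+AOA replicates run from 4266 to 5794 CPM.

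The comparison of AOA with Mock asks what blocking aminotransferases does to these genes without stimulation. Most members that changed rose: 41 were higher and 5 lower at an adjusted p under 0.05 (edgeR quasi-likelihood test, Benjamini-Hochberg over all genes tested), with a median log2 fold change of 0.30 over all 78. Among all genes 22.4% were called higher and 23.3% lower (45.7% in either direction), with a median of 0.02. Both subunits took part, with 12 higher and 1 lower among 26 proteins of the small subunit and 29 higher and 4 lower among 51 of the large subunit.
Mrps10, a protein of the small subunit head, stood at 50.7, 53.3 and 49.3 CPM in Mock and 93.0, 82.6 and 83.4 CPM in AOA (log2 fold change 0.76, SE 0.07, adjusted p = 8.8e-08). Mrpl57, which is particular to the mitochondrial large subunit, went from 13.7, 15.1 and 16.8 to 22.2, 28.3 and 23.0 CPM (0.69, SE 0.15, adjusted p = 8.7e-04). For both genes the AOA libraries lay above all Mock libraries, which was a condition for being named here. Replicates of the groups did not overlap for 61 members (78.2%), against 59.4% of all genes. Of the promoters shown above, that of Mrpl57 holds NRF1 and ETS letters and that of Mrps10 none of the 4 motifs. Mrpl17, at the rim of the peptide exit tunnel, rose from 52.1, 56.5 and 54.0 to 80.0, 86.9 and 87.9 CPM (0.65, SE 0.10, adjusted p = 6.2e-05), again without overlap. Mrpl19, at the subunit interface, rose by 0.64 on the log2 scale (adjusted p = 2.4e-06), though 36.0% of its exon bases overlap Gcfc2.

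A few members moved against the rest. Mrps6, which lies on the platform of the small subunit, stood at 77.5, 73.9 and 84.6 CPM in Mock and 40.8, 52.8 and 53.9 CPM in AOA (-0.68, SE 0.12, adjusted p = 1.9e-04). Mrpl1, at the base of the L1 stalk near the tRNA exit site, had 25.3, 25.6 and 26.0 CPM in Mock and 16.8, 16.6 and 19.0 CPM in AOA (-0.56, SE 0.09, adjusted p = 4.8e-05). Mrpl18 of the central protuberance fell from 105, 119 and 122 to 75.7, 72.7 and 87.6 CPM (-0.56, SE 0.09, adjusted p = 5.6e-05). In all 3 genes every AOA library lay under every Mock library, as the rule for naming them required. Mrpl51 fell by 0.34 on the log2 scale (adjusted p = 0.0030) and, with a correction for GC content and transcript length, no longer passed at -0.29 (adjusted p = 0.091). The fifth was Mrpl49, named here after its values were seen, at -0.24 (adjusted p = 0.014). Exons of Mrps6 overlap Slc5a3 over 19.9% of their bases and those of Mrpl18 overlap Tcp1 over 10.1%.
The split of the calls depended on the scaling. With library totals in place of TMM factors 26 members were higher and 11 lower, with a median of 0.17 while the median of all genes moved to -0.12, and with the correction for GC content and length 38 were higher and 11 lower.

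The comparison of AOA+Asp with AOA asks whether aspartate alters the response to AOA. It shares the AOA libraries with AOA against Mock, so noise in them enters both with opposite sign. Of the members, 39 were lower and 6 higher, with a median log2 fold change of -0.28. Among all genes 46.3% were called, 23.5% higher and 22.8% lower, with a median of -0.01. The 2 groups were fully separated for 53 members, against 56.8% of all genes. Mrpl57 fell to 11.6, 14.0 and 11.6 CPM with aspartate (-0.99, SE 0.15, adjusted p = 3.6e-05), so that no AOA+Asp library reached the AOA range. Mrpl17 stood at 48.8, 56.5 and 47.8 CPM (-0.74, SE 0.11, adjusted p = 1.8e-05) and also did not overlap AOA. Mrpl55, a bL31 homologue of the central protuberance, and Mrpl2, which supports the peptidyl transferase centre, were lower by log2 values of -0.72 (adjusted p = 1.8e-04) and -0.68 (adjusted p = 5.5e-05).
The members that were low under AOA were higher with aspartate. Mrpl1 had 31.4, 26.5 and 30.9 CPM (0.77, SE 0.09, adjusted p = 1.5e-06), Mrpl18 had 117, 115 and 111 CPM (0.54, SE 0.09, adjusted p = 7.6e-05) and Mrps6 had 67.6, 70.0 and 66.9 CPM (0.47, SE 0.12, adjusted p = 0.0043). None of these libraries overlapped the AOA group, as the rule for naming them required. Mrpl51 changed by 0.25 (adjusted p = 0.022), a call that was lost at adjusted p values of 0.050 to 0.082 without AOA replicate 1, AOA+Asp replicate 1 or AOA+Asp replicate 2, and that stood at 0.13 (adjusted p = 0.44) with the correction for GC content and length. Over all members the correction gave 31 lower and 11 higher members, and library totals 32 lower and 8 higher.

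Set against Mock, cells given both AOA and aspartate differed in few members. Only Mrpl47 (0.28, SE 0.07, adjusted p = 0.028), a uL29 homologue near the exit of the tunnel, and Mrpl42 (0.26, SE 0.08, adjusted p = 0.048) were called, both higher, and the median over the 78 members was -0.02, with a range of -0.29 to 0.28. Of all genes 6.47% were called in this comparison, 2.52% higher and 3.95% lower, and the groups were fully separated for 22 members, against 32.7% of all genes. AOA+Asp libraries held 44.6, 37.2 and 39.7 CPM of Mrpl47 against a Mock mean of 33.3, and 118, 117 and 104 CPM of Mrpl42 against 90.3, 93.8 and 98.0. Neither call was firm. All 18 libraries share the estimate of the spread, and leaving out each of them in turn left 0 to 3 members called, with 3 without HT-DNA+AOA replicate 1, 2 without HT-DNA+AOA replicate 3 or HT-DNA replicate 2, and 0 or 1 without any other. Mrpl47 was lost without any of Mock replicates 1 to 3 or AOA+Asp replicates 1 or 3 (adjusted p = 0.053 to 0.19). Mrpl42 was lost in 14 of the 18 fits (adjusted p = 0.053 to 0.21) and kept without AOA+Asp replicate 3, HT-DNA replicate 2 or HT-DNA+AOA replicate 1 or 3. A fit of only the libraries of these 2 groups called 9 members, 5 higher and 4 lower. Of the 13436 genes in that fit 1266 were called higher and 1196 lower. With no group given aspartate alone, its effect is defined here only on top of AOA.

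HT-DNA against Mock gives the response to transfected HT-DNA in cells without AOA. The labels do not say whether Mock cells received the transfection reagent, so effects of the DNA and of the reagent cannot be separated here. Most of the set rose: 70 of the 78 members were higher and 0 lower, all 78 had a log2 fold change above 0, and the median was 0.43. Among all genes 24.2% were called higher and 24.0% lower (48.2% in all), with a median of -0.01. Replicates of the groups did not overlap for 72 members, against 61.3% of all genes.
Mrpl12 led with 142, 143 and 147 CPM in Mock and 259, 232 and 262 CPM in HT-DNA (0.80, SE 0.14, adjusted p = 1.9e-04). Mrpl20, an early-binding protein of large subunit assembly, went from 73.2, 76.7 and 83.9 to 138, 120.0 and 137 CPM (0.76, SE 0.16, adjusted p = 0.0010), and Mrps26, particular to the mitochondrial small subunit, from 43.0, 45.4 and 46.4 to 73.9, 67.4 and 81.4 CPM (0.72, SE 0.12, adjusted p = 1.6e-04). In each the 3 stimulated libraries lay above the 3 Mock libraries, as the rule for naming them required. Mrpl54 rose from 25.6, 27.3 and 30.5 to 48.3, 40.8 and 47.7 CPM (0.71, SE 0.15, adjusted p = 0.0010).
Members named above for their rise with AOA were higher with HT-DNA too. These were Mrpl17 (0.71, adjusted p = 4.5e-05), Mrpl57 (0.56, adjusted p = 0.0046), Mrpl19 (0.31, adjusted p = 0.0037) and Mrps10 (0.29, adjusted p = 0.0027). AOA against Mock and HT-DNA against Mock share the Mock libraries, so genes picked in the first lean to the same sign in the second. With 70 of the 78 members higher here, these genes do not stand out from the set. None of the 5 members lower with AOA was called lower with HT-DNA. Mrpl18 had 161, 138 and 149 CPM (0.37, SE 0.09, adjusted p = 0.0023), above every Mock library, while Mrps6 stood at 0.18 (adjusted p = 0.23) and Mrpl1 at 0.11 (adjusted p = 0.30), neither past the test.
The size of this rise moved with a correction for transcript length and GC content. The median longest transcript was 1328 bases for members and 2885 bases for all genes tested. After correcting for both, 48 members were higher and 3 lower, with a median of 0.26. Among members named here, Mrpl54 then stood at 0.11 (adjusted p = 0.17), Mrps12 at 0.09 (adjusted p = 0.36) and Mrpl2 at 0.00 (adjusted p = 0.95), while Mrpl12, Mrpl20 and Mrps26 still passed.

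**Figure D2:**
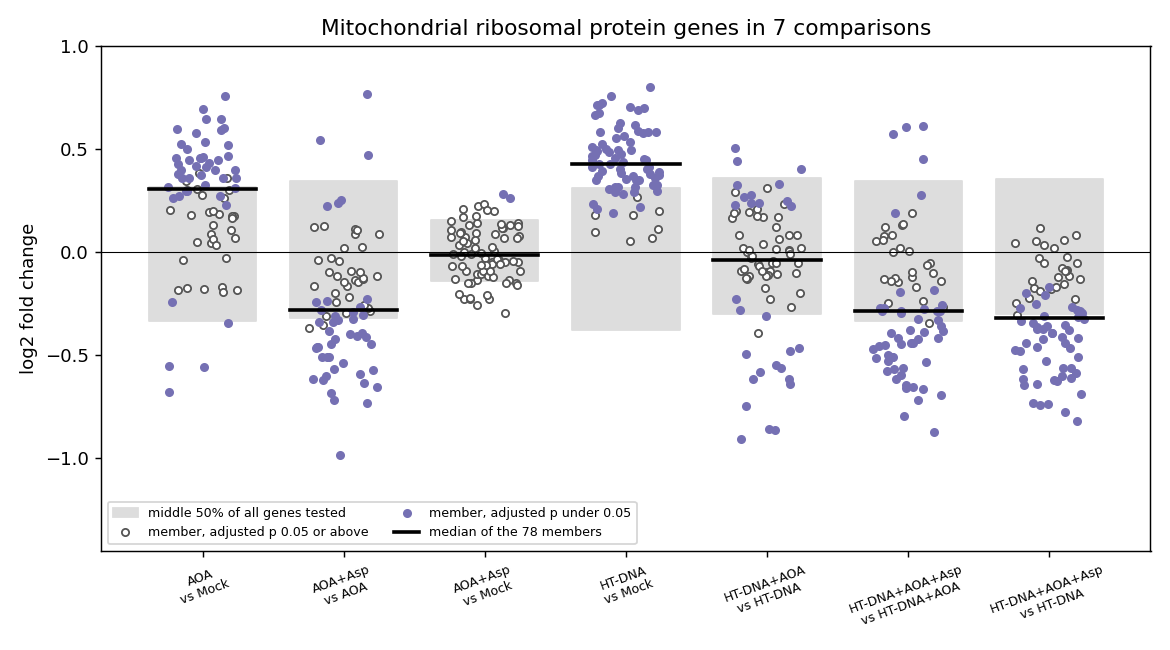
Log2 fold change of each of the 78 members (points, filled where the adjusted p was under 0.05) in 7 comparisons, with the members' median as a black line and the middle 50% of all genes tested in grey. All points lie above 0 for HT-DNA against Mock, and the median lies at 0.30 for AOA against Mock and at -0.28 once aspartate is added.

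HT-DNA+AOA against HT-DNA gives the AOA effect in stimulated cells. It shares the HT-DNA libraries with HT-DNA against Mock, so noise in them enters both with opposite sign. Here members moved both ways, 12 higher and 16 lower, with a median of -0.04. Among all genes 45.4% were called, 22.8% higher and 22.7% lower, so a smaller share of the members than of all genes was called higher. Mrps10 again rose, from 66.5, 59.0 and 61.8 to 85.8, 84.5 and 95.6 CPM (0.51, SE 0.07, adjusted p = 7.9e-06). Mrpl24, a protein at the tunnel exit whose exons overlap Rrnad1 over 26.3% of their bases, rose by 0.44 (adjusted p = 1.3e-04), Mrpl19 by 0.40 (adjusted p = 2.9e-04) and Mrps2, a small subunit protein, by 0.33 (adjusted p = 1.8e-04) on the log2 scale.
Mrpl18 fell from 161, 138 and 149 CPM to 69.1, 82.2 and 87.7 CPM (-0.91, SE 0.09, adjusted p = 1.3e-07), and Mrps6 from 95.2, 81.5 and 90.7 to 38.9, 47.6 and 60.7 CPM (-0.86, SE 0.12, adjusted p = 1.2e-05). Mrpl43, which is particular to the mitochondrial large subunit and overlaps Twnk over 33.4% of its exon bases, fell from 41.7, 37.5 and 40.8 to 17.4, 23.0 and 25.8 CPM (-0.86, SE 0.11, adjusted p = 5.0e-06). The groups did not overlap in these 3 genes, which was a condition for being named here. Over the whole set they did not overlap for 24 members (30.8%), against 44.8% of all genes. Mrpl40 of the central protuberance fell by 0.75 on the log2 scale (adjusted p = 4.6e-06).
The counts turned on the HT-DNA+AOA libraries. Without replicate 1 of that group 23 members were higher and 15 lower with a median of 0.11, and without replicate 3 there were 8 higher and 28 lower with a median of -0.14. The correction for GC content and length gave 16 higher and 27 lower, and a fit of only the libraries of these 2 groups called 16 members.

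AOA against Mock and HT-DNA+AOA against HT-DNA share no library, and their fold changes lined up across the members (Pearson r = 0.87 over 78 members and 0.61 over all 14263 genes, given as a description). The members share their libraries and are not independent of one another. Of the 41 members higher with AOA alone, 12 were higher, 28 not called and 1 lower in stimulated cells (Mrpl15, named after its values were seen). Of the 5 lower with AOA alone, Mrpl1, Mrpl18, Mrpl51 and Mrps6 were lower again and Mrpl49 was not called.  Tested as an interaction, the AOA effect was lower with HT-DNA than without it for 14 members and higher for 0, with a median difference of -0.34. Among all genes 15.5% were called, 7.23% higher and 8.26% lower, with a median of 0.01.
Mrpl43 (-0.69, SE 0.16, adjusted p = 0.0091), Mrpl17 (-0.65, SE 0.15, adjusted p = 0.0083) and Mrpl12 (-0.64, SE 0.20, adjusted p = 0.034) had the lowest interaction values. Mrpl12 held 143, 172 and 172 CPM in AOA, 259, 232 and 262 CPM in HT-DNA and 131, 178 and 237 CPM in HT-DNA+AOA, where replicate 1 lay under the Mock libraries and replicate 3 within the HT-DNA range. Its interaction call was lost in 8 of the 18 fits that left out a single library (adjusted p = 0.058 to 0.083), namely any Mock library, AOA replicate 2 or 3, HT-DNA replicate 1 or 3 or HT-DNA+AOA replicate 2. A fit of only the 4 groups concerned lost it as well, at -0.65 (adjusted p = 0.086). Mrpl43 and Mrpl17 kept the call in all 18. The correction for GC content and length left Mrpl17 at -0.98 (adjusted p = 0.056). The number of members called rose to 55, all lower, without HT-DNA+AOA replicate 3. Calls among all genes rose as well in that fit, from 1031 higher and 1178 lower to 2558 and 2862. The number of members fell to between 6 and 9 without any other HT-DNA+AOA library or any Mock library. The same range held without AOA replicate 2 or 3, or HT-DNA replicate 1 or 3. A fit of only the 4 groups called 5.

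**Figure D3:**
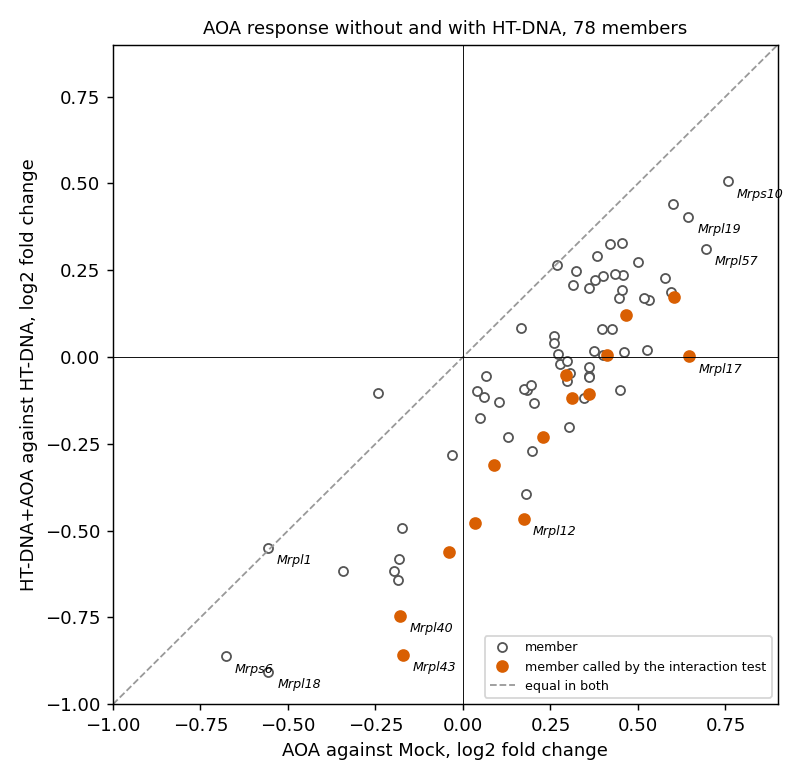
Log2 fold change of each member with AOA in unstimulated cells (horizontal axis) and in HT-DNA-stimulated cells (vertical axis), with filled points for the 14 members called by the interaction test and a dashed line where both are equal. Most points lie under the dashed line, while Mrps6, Mrpl1 and Mrpl18 lie low and Mrps10 high on both axes.

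Aspartate on top of AOA in stimulated cells (HT-DNA+AOA+Asp against HT-DNA+AOA) lowered 46 members and raised 6, with a median of -0.29. Among all genes 47.7% were called, 23.7% higher and 23.9% lower. Mrpl57 had 21.6, 26.8 and 35.4 CPM without and 15.1, 15.2 and 15.2 CPM with aspartate (-0.87, SE 0.15, adjusted p = 1.0e-04). Mrpl41 (-0.80, adjusted p = 1.3e-04), Mrpl54 (-0.72, adjusted p = 8.9e-04) and Mrpl2 (-0.69, adjusted p = 4.4e-05) were lower as well. Mrpl43 rose to 34.3, 35.5 and 31.4 CPM (0.61, SE 0.11, adjusted p = 2.5e-04), Mrpl1 to 29.1, 29.8 and 27.6 CPM (0.61, SE 0.09, adjusted p = 2.0e-05), Mrpl18 to 118, 119 and 118 CPM (0.57, SE 0.09, adjusted p = 4.4e-05) and Mrps6 to 69.0, 64.8 and 67.0 CPM (0.45, SE 0.12, adjusted p = 0.0059). All of these libraries lay outside the HT-DNA+AOA range, as the rule for naming them required. Over the whole set the groups did not overlap for 44 members (56.4%), against 48.8% of all genes. This comparison shares the HT-DNA+AOA libraries with HT-DNA+AOA against HT-DNA, so noise in them enters both with opposite sign. In a fit of only the libraries of these 2 groups Mrps6 stood at 0.44 (adjusted p = 0.055) and 30 members were called. Without HT-DNA+AOA replicate 3 the counts were 31 lower and 8 higher, and without replicate 1 they were 54 lower and 5 higher. The correction for GC content and length gave 35 lower and 11 higher, and library totals 34 lower and 9 higher.
The aspartate effect without and with HT-DNA comes from separate libraries. Over the 78 members its fold changes had a Pearson r of 0.92, and over all genes 0.68. Of the 39 members that aspartate lowered in unstimulated cells 36 were lower in stimulated cells too, and of the 6 raised, Mrpl1, Mrpl18 and Mrps6 were raised again. The interaction of aspartate with HT-DNA called 0 members in edgeR and 0 in DESeq2. In edgeR 1.05% of all genes were called (0.266% higher and 0.785% lower). At an unadjusted p under 0.05 there was 1 member, a count that cannot be set against that share. Without HT-DNA+AOA replicate 3 edgeR called 1 member. The member differences ran from -0.26 to 0.49.

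With both AOA and aspartate, stimulated cells stood under cells given HT-DNA alone. This comparison too shares the HT-DNA libraries with HT-DNA against Mock, with opposite sign. Of the members 50 were lower and 0 higher (HT-DNA+AOA+Asp against HT-DNA), with a median of -0.32, while 23.5% of all genes were called lower and 23.2% higher (46.6% in all) with a median of 0.00. The 2 groups were fully separated for 61 members, against 61.1% of all genes. Mrpl20 went from 138, 120.0 and 137 to 70.1, 72.8 and 81.3 CPM (-0.82, SE 0.16, adjusted p = 6.9e-04). Mrpl54 went from 48.3, 40.8 and 47.7 to 25.7, 27.4 and 26.8 CPM (-0.78, SE 0.15, adjusted p = 6.8e-04) and Mrpl52 of the central protuberance from 35.7, 31.3 and 40.0 to 22.2, 19.9 and 21.8 CPM (-0.74, SE 0.15, adjusted p = 7.1e-04). Mrpl12 fell to 151, 150.1 and 152 CPM (-0.73, SE 0.14, adjusted p = 5.1e-04), close above its Mock level of 142 to 147 CPM. No library overlapped the HT-DNA group for these 4 genes. Corrected for GC content and length, Mrpl54 stood at -0.16 (adjusted p = 0.056), and 41 members were lower and 3 higher.

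**Figure D4:**
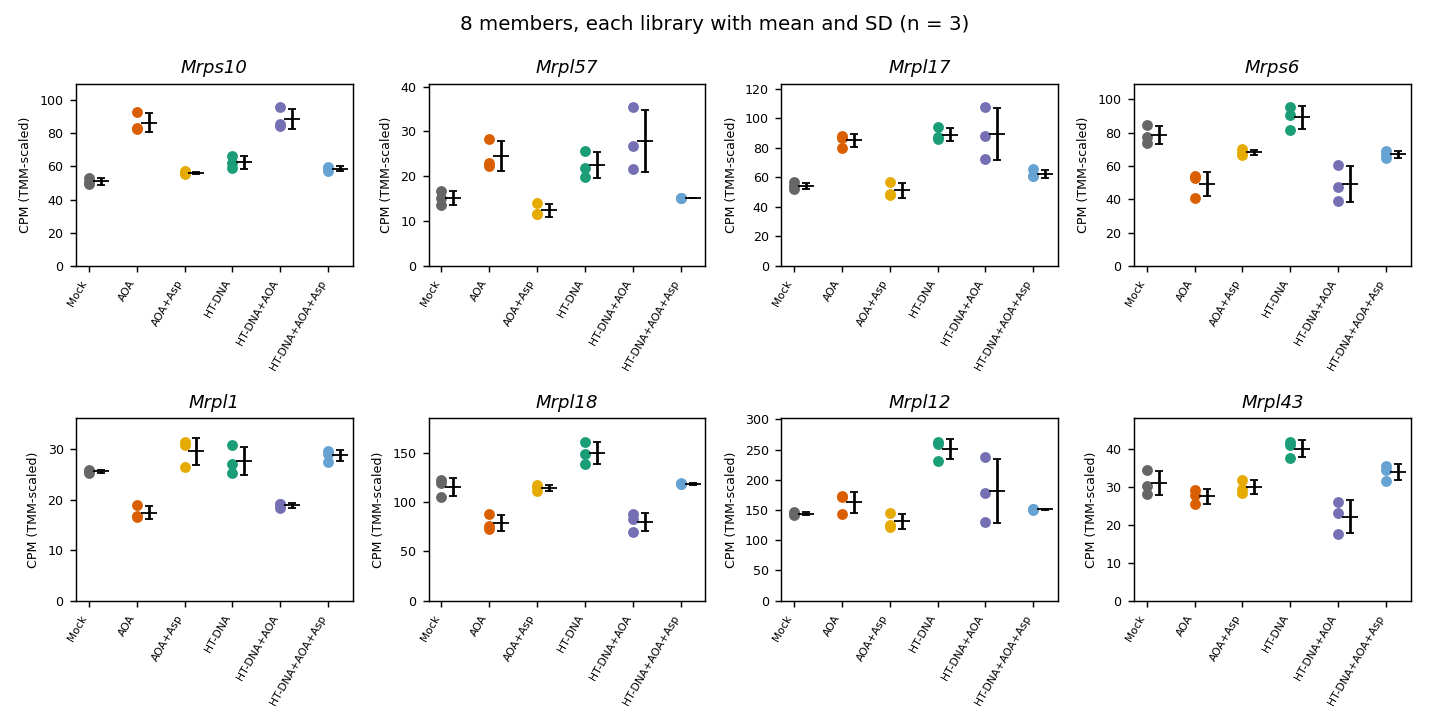
CPM of 8 members (vertical axes, each from 0) in the 3 libraries of each group, with the mean and SD in black. Mrps10, Mrpl57 and Mrpl17 are high wherever AOA was given without aspartate, Mrps6, Mrpl1 and Mrpl18 are low there, and Mrpl12 is high with HT-DNA alone. Mrpl17, Mrpl57 and Mrps10 are also higher than Mock with HT-DNA alone (log2 fold changes 0.71, 0.56 and 0.29).

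The response to HT-DNA was then compared over its 3 backgrounds, a comparison chosen after the data were seen. On top of AOA (HT-DNA+AOA against AOA) 5 members were higher and 0 lower, with a median of 0.12, against 13.4% of all genes called (6.46% higher and 6.98% lower). Named after their values were seen, they were Mrpl32 (0.38), Mrpl36 (0.35), Mrps2 (0.26), Mrpl47 (0.24) and Mrpl50 (0.23), with adjusted p values of 0.020, 0.015, 0.0066, 0.035 and 0.047. That count rested on the HT-DNA+AOA libraries, since 41 members were higher without replicate 1 and 2 without replicate 2. Without replicate 3 there were 3 higher and 2 lower, with 1015 of all genes called higher and 1067 lower. The members' median moved too, to 0.23 without replicate 1 and to 0.00 without replicate 3. Without replicate 1 calls among all genes rose as well, from 922 higher and 995 lower to 1857 and 2300. The member count was 1 without AOA replicate 1 or 2, 3 without any HT-DNA+AOA+Asp library and 8 without HT-DNA replicate 2. On top of AOA and aspartate (HT-DNA+AOA+Asp against AOA+Asp) Mrps2 alone was higher (0.34, SE 0.06, adjusted p = 0.0026), with a median of 0.09 over the members and 3.45% of all genes called (1.93% higher and 1.52% lower). That count was 2 without HT-DNA+AOA replicate 1 and 3 without replicate 3. Mrps2 held 80.7, 84.0 and 82.7 CPM in AOA+Asp and 103, 105 and 105 CPM in HT-DNA+AOA+Asp, without overlap.
In the direct comparison the estimated HT-DNA response with AOA and aspartate was below that in Mock cells for 77 of the 78 members. This counts signs and not tests, and the members share their libraries and are not independent. No share of all genes with that sign is given here. The median difference was -0.32, against 0.01 over all genes. Only Mrpl36 (-0.52, SE 0.13, adjusted p = 0.030) and Mrpl37 (-0.38, SE 0.11, adjusted p = 0.046) passed the adjusted test. By the same test 6.25% of all genes were called (3.24% higher and 3.01% lower). At an unadjusted p under 0.05 there were 47 members, a count that cannot be set against that share. A fit of only the 12 libraries concerned, whose spread includes neither the AOA nor the HT-DNA+AOA libraries, called 48 members, all of them lower. Calls among all genes rose as well, to 2222 higher and 2187 lower of the 13869 genes in that fit. The count thus depended on which libraries entered the fit, and DESeq2 on all libraries called 13. In the fit of all groups 40 members were called, all lower, without HT-DNA+AOA replicate 1 and again without replicate 3. This comparison does not use that group. Among all genes 1711 were then called higher and 1701 lower without replicate 1, and 1499 and 1663 without replicate 3. The fit of all groups called 3 members without HT-DNA replicate 2 and 0 or 1 without any of the other 15 libraries.

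**Figure D5:**
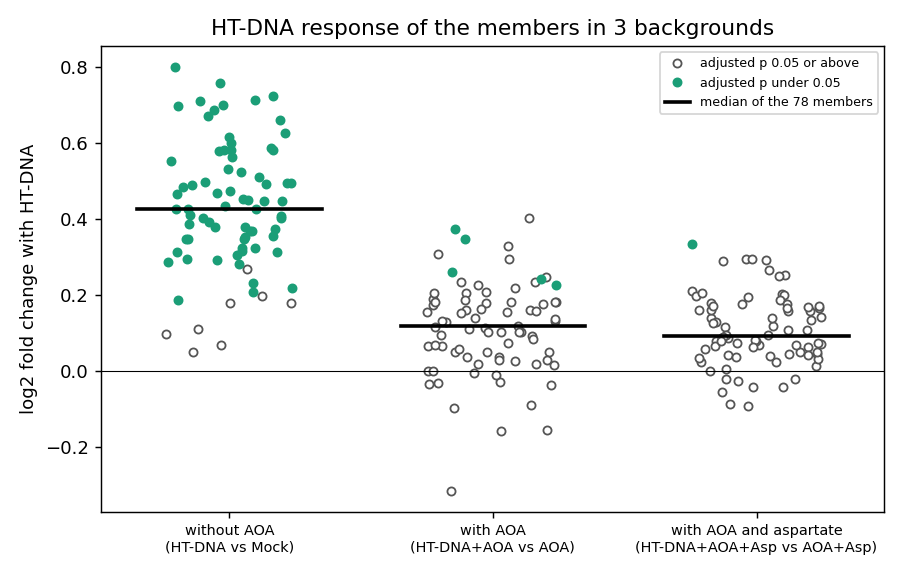
Log2 fold change with HT-DNA of each of the 78 members (points, filled where the adjusted p was under 0.05) in cells without AOA, with AOA, and with AOA and aspartate, with the median as a black line. The medians are 0.43, 0.12 and 0.09. With each library left out in turn, the median with AOA ran from 0.00 to 0.23.

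The members were also grouped by their place in the ribosome. With HT-DNA the 5 stalk proteins, which recruit translation factors, were all higher with a median of 0.62, and all 5 were lower in HT-DNA+AOA+Asp against HT-DNA with a median of -0.56. The 6 proteins of the peptide exit site had 4 higher with a median of 0.31 and then 2 lower with a median of -0.13. Of the 9 proteins of the central protuberance 9 were higher with HT-DNA and 7 lower in HT-DNA+AOA+Asp, with medians of 0.41 and -0.34. Among all genes 24.2% were higher with HT-DNA and 23.5% lower in HT-DNA+AOA+Asp against HT-DNA. The difference between these groups was not tested. Noise in the HT-DNA libraries enters both comparisons with opposite sign, so a group with a large rise leans to a large fall. Mrpl54, one of the stalk proteins, passed in neither comparison once transcript length and GC content were corrected for. Counts by place after such a correction are not given here.
AOA alone raised 1 of the 5 stalk proteins, 4 of the 6 at the exit site and 5 of the 9 in the central protuberance, where 1 fell (Mrpl18), while 22.4% of all genes were called higher and 23.3% lower. The stalk's count was near that share. Mrpl10, which anchors Mrpl12 in the stalk, stood at 74.5, 76.5 and 73.8 CPM in Mock, 90.4, 97.0 and 91.6 in AOA, 98.9, 98.2 and 99.9 in HT-DNA and 82.9, 89.8 and 101 in HT-DNA+AOA. It rose with AOA (0.31, SE 0.07, adjusted p = 0.0010) and with HT-DNA (0.40, SE 0.07, adjusted p = 1.5e-04), and its AOA effect was lower in stimulated cells (-0.43, SE 0.10, adjusted p = 0.0073), a call kept whichever library was left out.
By ancestry, with the same 22.4% and 23.3% of all genes as the background, AOA raised 8 of 15 small subunit proteins with a bacterial counterpart and lowered 1, and raised 4 of 11 that are particular to mitochondria. In the large subunit it raised 20 of 30 with a bacterial counterpart and lowered 2, and raised 9 of 21 others and lowered 2. With HT-DNA the counts higher were 13 of 15, 9 of 11, 27 of 30 and 20 of 21, against 24.2% of all genes, with medians between 0.39 and 0.45.

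Several members have roles of their own. Mrpl58 (ICT1), a peptidyl-tRNA hydrolase that rescues stalled ribosomes, rose with AOA (0.59, SE 0.10, adjusted p = 7.4e-05) and with HT-DNA (0.49, SE 0.10, adjusted p = 6.0e-04) and was lower with aspartate on AOA (-0.57, SE 0.10, adjusted p = 1.2e-04). Mrpl45, which ties the ribosome to the inner membrane at the tunnel exit, rose with HT-DNA (0.29, SE 0.08, adjusted p = 0.0050) and stood at 0.17 with AOA (adjusted p = 0.078), which did not pass. Mrps12 of the decoding centre was higher with HT-DNA (0.58, SE 0.12, adjusted p = 6.3e-04) and lower in HT-DNA+AOA than in HT-DNA (-0.62, SE 0.12, adjusted p = 3.0e-04). Its 3 libraries held 21.1, 18.6 and 21.6 CPM in HT-DNA and 10.7, 13.7 and 15.7 CPM in HT-DNA+AOA.
Mrps30, a large subunit protein despite its name, rose with AOA (0.60, SE 0.10, adjusted p = 9.7e-05) and with HT-DNA (0.53, SE 0.10, adjusted p = 4.3e-04). Mrpl3, near the peptidyl transferase centre, rose less, by 0.30 with AOA (adjusted p = 0.0045) and by 0.35 with HT-DNA (adjusted p = 0.0015). With library totals its AOA value was 0.16 (adjusted p = 0.063). Mrpl44, a ribonuclease III-like protein, rose with HT-DNA (0.45, SE 0.08, adjusted p = 2.8e-04) and was at 0.09 with AOA (adjusted p = 0.40).
The Mrps18 paralogs occupy different places, Mrps18b and Mrps18c in the small and Mrps18a in the large subunit. With AOA, Mrps18a went from 59.4, 57.8 and 62.4 to 88.5, 86.7 and 81.9 CPM (0.52, SE 0.10, adjusted p = 2.3e-04) and Mrps18b from 92.0, 97.8 and 97.9 to 131, 129 and 137 CPM (0.46, SE 0.08, adjusted p = 7.0e-05), both without overlap. Mrps18c, at 28.0, 30.4 and 35.4 and 33.4, 34.9 and 47.2 CPM, did not pass (0.30, SE 0.16, adjusted p = 0.13). With HT-DNA all 3 were higher, by 0.53, 0.45 and 0.47 (adjusted p = 2.9e-04, 1.6e-04 and 0.020). Corrected for GC content and length, Mrps18a was at 0.05 (adjusted p = 0.57) and Mrps18b at 0.12 (adjusted p = 0.051), and the call of Mrps18c was lost without Mock replicate 1 or 2 or HT-DNA replicate 1 (adjusted p = 0.059 to 0.12). Of their 31-base words, 33.9% in Mrps18b and 35.7% in Mrps18c occur in other genes.
Mrps36 carries a ribosomal name but belongs to the 2-oxoglutarate dehydrogenase complex. It held 20.3, 23.3 and 23.5 CPM in Mock and 21.7, 24.6 and 23.0 CPM in AOA, which overlapped (0.05, SE 0.11, adjusted p = 0.74). With HT-DNA it held 25.9, 27.6 and 28.2 CPM (0.28, SE 0.11, adjusted p = 0.034), a call lost without Mock replicate 1 or 2 or HT-DNA replicate 2 or 3 (adjusted p = 0.050 to 0.15) and with the correction for GC content and length at 0.15 (adjusted p = 0.13).

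Some mitochondrial ribosomal proteins carry other names. Of 5 such genes 3 were higher with AOA, among them Dap3, a GTP-binding protein of the small subunit head (0.28, SE 0.08, adjusted p = 0.0095), and 4 were higher with HT-DNA, against 22.4% and 24.2% of all genes. The largest of these was Gadd45gip1, on the large subunit, at 0.76, SE 0.13, adjusted p = 1.4e-04. Aspartate lowered Dap3 on top of AOA (-0.22, SE 0.08, adjusted p = 0.037) and, in all, 4 of the 5 genes without and 4 with HT-DNA (22.8% and 23.9% of all genes). Ptcd3, an RNA-binding protein of the small subunit, went the other way in both (0.27 and 0.51, adjusted p = 0.033 and 4.2e-04).
Of 23 genes for assembly of the mitochondrial ribosome and processing of its rRNA, 13 were higher and 1 lower with AOA, against 22.4% higher and 23.3% lower among all genes. Mtg1, a GTPase of large subunit assembly, rose most (1.02, SE 0.12, adjusted p = 1.1e-06), Tfb1m, which methylates the small subunit rRNA, rose by 0.57 (adjusted p = 6.3e-04), and the only one to fall was Mterf3 (-0.42, SE 0.07, adjusted p = 9.4e-05). Aspartate on top of AOA lowered 14 and raised 3 (22.8% and 23.5% of all genes), with Mtg1 at -1.01, SE 0.12, adjusted p = 1.4e-06. It shares the AOA libraries with AOA against Mock, so a gene picked as the largest there leans to the opposite sign here. HT-DNA raised 13 and lowered 1 (24.2% and 24.0% of all genes), from Mrm3, an rRNA methyltransferase (0.72, SE 0.10, adjusted p = 2.0e-05), to Mettl17 (-0.42, SE 0.13, adjusted p = 0.0095). AOA in stimulated cells raised 6 and lowered 6, near the 22.8% and 22.7% of all genes, with Nsun4 at 0.69 and Rbfa, a maturation factor of the small subunit, at -0.68 (adjusted p = 2.4e-05 and 1.3e-05).
Mitochondrial translation factors and mRNA regulators, 16 genes, had 4 higher and 3 lower with HT-DNA, near the 24.2% and 24.0% of all genes. Tufm, the elongation factor that brings tRNA to the ribosome, rose (0.44, SE 0.09, adjusted p = 8.9e-04), while Mtif2, the initiation factor, and Lrpprc, which stabilises mitochondrial mRNAs, fell (-0.69, SE 0.16, adjusted p = 0.0022 and -0.48, SE 0.13, adjusted p = 0.0070). In HT-DNA+AOA against HT-DNA each had the opposite sign, with Tufm at -0.45, SE 0.09, adjusted p = 5.6e-04, Mtif2 at 0.75, SE 0.16, adjusted p = 9.2e-04 and Lrpprc at 0.45, SE 0.13, adjusted p = 0.010. Both comparisons use the HT-DNA libraries, so genes picked in the first lean to the opposite sign in the second. With AOA alone, where 22.4% of all genes were higher and 23.3% lower, 5 rose, led by Mrrf, the ribosome recycling factor (0.41, SE 0.10, adjusted p = 0.0020), and 1 fell, Mtrf1l, a release factor (-0.33, SE 0.08, adjusted p = 0.0031).
Of the 13 mRNAs that the mitochondrial ribosome translates, AOA raised 4 and lowered 2, close to the 22.4% and 23.3% of all genes. mt-Nd1 (-0.75, SE 0.07, adjusted p = 1.1e-07) and mt-Nd2 (-0.61, SE 0.07, adjusted p = 5.7e-07), which encode subunits of complex I, were lower, and mt-Cytb (0.42, SE 0.07, adjusted p = 5.4e-05) and mt-Co1 (0.40, SE 0.07, adjusted p = 1.1e-04) higher. Aspartate raised mt-Nd1 again (0.81, SE 0.07, adjusted p = 5.8e-08), and AOA also lowered it in stimulated cells (-0.76, SE 0.07, adjusted p = 5.9e-08). The aspartate comparison reuses the AOA libraries with opposite sign, which favours such a reversal, whereas the comparison in stimulated cells shares no library with AOA against Mock. HT-DNA raised 4 of the 13 and lowered 0 (24.2% and 24.0% of all genes), and the largest value, mt-Co3 at 1.04, SE 0.40, adjusted p = 0.048, had the widest error of those named.

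The cytosolic ribosomal protein genes give a comparison within the same libraries. Of 84 such genes 74 were higher with AOA and 78 with HT-DNA, with medians of 0.45 and 0.49 and 0 lower in either, where 22.4% and 24.2% of all genes were higher. Aspartate on top of AOA lowered 53 without and 69 with HT-DNA (22.8% and 23.9% of all genes), and 45 were lower and 1 higher in HT-DNA+AOA+Asp against HT-DNA (23.5% and 23.2%). In HT-DNA+AOA against HT-DNA 12 were higher and 0 lower (22.8% and 22.7%), where the mitochondrial members had 12 higher and 16 lower. Whether the sets differ was not tested.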

How the data were processed

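Expression was measured by RNA-seq of total RNA in 18 libraries of L929 cells, 6 groups of 3. The authors deposited a table of estimated counts for each gene and library (11.6% of values were not whole), together with 6 columns of group means, which were not used. The aligner, counting program, genome build, annotation and strand setting are not given in the sources used here.

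Estimated counts were rounded to whole numbers. The filter filterByExpr of edgeR, with 10 as the minimum count and 15 as the minimum total, left 14263 genes, and TMM factors ran from 0.918 to 1.07. edgeR 4.0.16 (R 4.3.3) fitted 1 robust quasi-likelihood model to all 18 libraries, so that groups share the estimate of the spread. p-values were adjusted by Benjamini-Hochberg over all genes tested, with a threshold of 0.05. Levels are CPM on TMM-scaled library sizes. Comparisons were 7 pairs of groups and 2 interactions, and 3 further ones chosen after seeing the data. The members, gene lists and tests were chosen with earlier results of these data known. Named members were the 4 largest rises and falls past the threshold without overlap of replicates in 5 comparisons (the 3 largest in the others), those with a role of their own, and the 5 highest and 3 lowest per length.

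Transcript length, GC content, shared 31-base words and exon overlap came from GENCODE vM21, which may not be the annotation the counts were made with, and no gene coordinates are given for that reason. Alternatives were RLE factors, library totals, other filters on low counts, a replicate block, only the groups compared, each library left out, a loess correction for GC content and length (span 0.3), a minimum change of 0.5 on the log2 scale, and DESeq2 1.42.0. The fits were tested on simulated data with known changes. Replicate libraries differed by more than sampling noise (chi-square per degree of freedom 2.78 to 67.0), so none was counted as a duplicate.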

Additional observations from a re-analysis of the deposited data

Results flagged for a closer look

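The effect of AOA differed between cells without and with HT-DNA for 14 of the 78 members by the interaction test, where 15.5% of all genes were called. The effect was lower in stimulated cells in each of the 14, against 8.26% of all genes lower. Among the members named by rule, the differences on the log2 scale were -0.43 for Mrpl10, -0.64 for Mrpl12, -0.65 for Mrpl17, -0.35 for Mrpl3, -0.57 for Mrpl40, -0.69 for Mrpl43, -0.40 for Mrpl44, -0.34 for Mrps18b and -0.43 for Mrps30. Mrpl10, Mrpl17, Mrpl40 and Mrpl43 passed in each of the 18 fits that left out 1 library. Mrpl12 was lost in 8 of the 18, Mrpl44 in 7, Mrpl3 in 12, Mrps30 in 16 and Mrps18b in 12, with adjusted p values of up to 0.12. Over the 18 fits the difference for Mrpl12 ran from -0.88 to -0.45 and Mrpl43 from -0.81 to -0.55.

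The response to HT-DNA also differed between Mock cells and cells given AOA and aspartate, in a comparison chosen after seeing the data. It was called for 2 members, Mrpl36 (-0.52) and Mrpl37 (-0.38), both lower with AOA and aspartate. These are 2.56% of the members, under the 6.25% of all genes called, and 40 members were called without HT-DNA+AOA replicate 1 or 3. Calls among all genes rose as well, to 1711 higher and 1701 lower without replicate 1, and to 1499 and 1663 without replicate 3. Groups of 3 libraries are too small for a test of single outlying values.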

How the results depend on the processing

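Calls of named members (155 of a member in a comparison) kept direction and side of the threshold in 154 with DESeq2, 154 with at least 10 counts required in every library, 150 with RLE factors, 142 with no filter, 141 with only the groups compared, 132 with library totals and 123 with the correction for GC content and length. That correction ended 29 calls and reversed the sign of 3, also when combined with the replicate block: Mrps18a and Mrps18b in HT-DNA+AOA+Asp against HT-DNA (0.069 and 0.065, or 0.068 and 0.065 with the block) and Mrps21 in HT-DNA against Mock (-0.081 in both). The causes were not tested. Leaving out each of the 18 libraries in turn, those of the groups not compared having been added after seeing the data, kept 2624 of 2790 calls.

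Numbers of members called, with each of the 18 libraries left out, ran from 40 to 54 for AOA against Mock, 36 to 54 for AOA+Asp against AOA, 0 to 3 for AOA+Asp against Mock, 58 to 72 for HT-DNA against Mock, 23 to 38 for HT-DNA+AOA against HT-DNA, 39 to 59 for HT-DNA+AOA+Asp against HT-DNA+AOA and 39 to 55 against HT-DNA. For the interactions they ran from 6 to 55 (AOA), 0 to 1 (aspartate) and 0 to 40 (AOA with aspartate), and for HT-DNA on top of AOA from 1 to 41 and on top of AOA and aspartate from 1 to 3.

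When members also had to change by 0.5 or more on the log2 scale, 15, 18, 0, 23, 11, 22 and 19 members passed in the 7 comparisons in that order, 6 in the AOA interaction, 0 for HT-DNA on top of AOA, 0 on top of AOA and aspartate and 1 in the interaction of AOA and aspartate. No share of all genes is given at this threshold, so these counts cannot be set against a background. The same holds for the counts below where calls among all genes are not printed. AOA+Asp against Mock called 1 member with RLE factors, 0 with library totals, 0 with no filter, 1 with the replicate block and 9 with only the groups compared. With only the groups compared, by construction with fewer libraries, the count was 16 for HT-DNA+AOA against HT-DNA and 30 for HT-DNA+AOA+Asp against HT-DNA+AOA. It was 5 for the AOA interaction, 0 for HT-DNA on top of AOA and 14 on top of AOA and aspartate. For the interaction of AOA and aspartate it was 48, with 2222 of all genes called higher and 2187 lower. The correction for GC content and length gave 43 for HT-DNA+AOA against HT-DNA, 1 for the aspartate interaction, 9 for HT-DNA on top of AOA, 3 on top of AOA and aspartate and 10 for the interaction of AOA and aspartate. The last 4 were 1, 9, 2 and 11 with the replicate block added. The AOA interaction called 9 members with library totals and 26 with no filter. HT-DNA on top of AOA called 9 in DESeq2. The interaction of AOA and aspartate called 1 with RLE factors, 1 with library totals, 24 with no filter, 4 with the replicate block and 13 in DESeq2. The causes of these shifts were not tested.

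Replicate numbers did not pair the libraries. In 0 of the 7 comparisons did every same-numbered pair correlate over 0.1 (r from -0.16 to 0.22), and 8 of 21 libraries correlated best with their own number. With the replicate block 50 members were called for AOA against Mock, 69 for HT-DNA against Mock and 19 for the AOA interaction. All libraries share the estimate of the spread, also those of groups that a comparison does not use. Without HT-DNA+AOA replicate 1 the count went from 46 to 54 for AOA against Mock and from 2 to 40 for the interaction of AOA and aspartate. Without replicate 2 these counts were 46 and 1. Calls among all genes rose as well without replicate 1. They went from 3199 higher and 3317 lower to 3745 and 3762 for AOA against Mock, and from 462 and 429 to 1711 and 1701 for the interaction.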
